A study of Rattus norvegicus with 7 samples.

Results

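The integrated stress response was followed through 10 genes, Atf3, Atf4, Ddit3, Ppp1r15a, Trib3, Chac1, Asns, Sesn2, Ddit4 and Vldlr, which encode ATF4 pathway factors and targets. They were picked by gene symbol, and all 10 were found among the 17147 symbols of every library. The cells were rMSCs, primary mesenchymal stem cells from the bone marrow of a male Sprague-Dawley rat aged 6 weeks, grown in alpha MEM with FBS and collected 4 h after seeding. In the ISB-P group they lay on films of a polyurethane copolymer made with propoxylated isosorbide, in the PCL group on polycaprolactone films, and in the TCP group on tissue culture plastic. Both films were 16 mm in diameter, were sterilized with ethylene oxide gas and received 20000 cells. RNA-seq values were analysed for 3 ISB-P, 3 PCL and 1 TCP libraries, in FPKM, which scales fragments by transcript length and by library. Nothing in the labels says that libraries of a film came from separate animals or isolations, so p-values measure the spread between these libraries, which may be technical.

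In this pathway 4 kinases, for unfolded protein in the endoplasmic reticulum, amino acid shortage, double-stranded RNA or haem shortage, phosphorylate the translation factor eIF2. General protein synthesis then slows while the ATF4 message is translated more. ATF4 binds with C/EBP-type partners at composite CARE elements and drives genes of amino acid supply, of redox control and of its own shut-off. Control of ATF4 itself is largely translational, so its mRNA level and its activity are separate quantities, and only mRNA was measured here.

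Of 9 markers of mesenchymal stem cells, 8 were detected and tested, and none passed between the films in limma, with 1, Pdgfrb, lower at an unadjusted p under 0.05. Thy1 was between 925 and 1056 FPKM on the films and 1209.8 on TCP, while Col1a1 was 3868 to 6058 on the films and 10406 on TCP. Pdgfrb averaged 97.8 FPKM on ISB-P and 166 on PCL (adjusted p = 0.0510 in limma, 0.000141 with a block for the replicate number), with 177 on TCP, and Vcam1 averaged 16.0 on ISB-P and 15.1 on PCL, with 32.8 on TCP. Not all of these markers were highest on TCP. Itgb1 averaged 790 FPKM on ISB-P and 655 on PCL, with 481 on TCP, and Nt5e 10.3 and 11.1, with 9.56. Cd44 averaged 387 on ISB-P and 328 on PCL, with 343 on TCP, and Eng 14.1 and 14.7, with 19.2. The part of these marker differences in the results was not tested. The summed level of 9 leukocyte markers was 46.2 to 55.5 FPKM on PCL and 47.6 to 53.6 on ISB-P, against 147 on TCP, and that of 5 endothelial markers did not pass 0.565 FPKM in any library. Col1a2 was listed at 0 in all 7 libraries beside Col1a1 at 3868 FPKM or more, so a listed 0 may be a failed estimate. The values of a library summed to between 539393 and 660124 FPKM.

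The RefSeq promoter table (assembly GRCr8, a later build than the rn5 of the files) held a window for 9 of the 10 genes, all but Atf3. The 250 bases before the annotated start were searched on both strands for the CARE letters TGATGNAAN, the CRE letters TGACGTCA, read by ATF and CREB factors, and the AP-1 letters TGANTCA. No site of 1 motif overlapped a site of another. The 4 windows that held a match are shown, with the matched letters in capitals.
Trib3 promoter, GRCr8 chr3:161275534-161275783, minus strand: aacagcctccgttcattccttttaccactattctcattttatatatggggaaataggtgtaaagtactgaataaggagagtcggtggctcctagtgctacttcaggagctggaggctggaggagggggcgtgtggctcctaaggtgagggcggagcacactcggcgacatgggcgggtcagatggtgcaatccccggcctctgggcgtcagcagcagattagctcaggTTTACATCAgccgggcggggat
Chac1 promoter, GRCr8 chr3:126795881-126796130, plus strand: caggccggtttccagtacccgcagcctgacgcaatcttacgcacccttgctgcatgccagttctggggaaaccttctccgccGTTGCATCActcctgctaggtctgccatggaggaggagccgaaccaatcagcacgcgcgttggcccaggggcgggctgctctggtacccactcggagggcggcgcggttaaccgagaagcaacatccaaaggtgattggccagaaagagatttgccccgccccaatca
Ppp1r15a promoter, GRCr8 chr1:105139597-105139846, minus strand: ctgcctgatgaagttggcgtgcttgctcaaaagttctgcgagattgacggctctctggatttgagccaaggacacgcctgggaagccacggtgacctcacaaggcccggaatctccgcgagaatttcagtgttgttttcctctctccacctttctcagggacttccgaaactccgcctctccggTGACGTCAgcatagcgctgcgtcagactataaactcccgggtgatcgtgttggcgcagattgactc
Ddit3 promoter, GRCr8 chr7:65001445-65001694, plus strand: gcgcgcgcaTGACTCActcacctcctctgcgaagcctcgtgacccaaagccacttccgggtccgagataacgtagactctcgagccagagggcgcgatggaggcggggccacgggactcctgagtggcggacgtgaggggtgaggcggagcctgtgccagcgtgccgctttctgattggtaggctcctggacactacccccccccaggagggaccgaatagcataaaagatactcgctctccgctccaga
CARE letters lay 22 to 14 bases before the start of Trib3 and 168 to 160 bases before that of Chac1, both on the opposite strand, and 3.38% of the 33469 RefSeq windows of this length held them. A CRE lay 66 to 59 bases before the start of Ppp1r15a, against 1.59% of windows, and AP-1 letters lay 241 to 235 bases before that of Ddit3, against 6.34%. These matches are letters in a window and were not tested as binding sites.

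Between ISB-P and PCL, the transcription factor genes Ddit3 and Atf3 passed the test as higher on ISB-P, by 3.57-fold and 2.13-fold. All ISB-P libraries also lay above all PCL libraries in Atf4, Ppp1r15a and Trib3, which did not pass. In Chac1 and Ddit4 all ISB-P libraries lay below all PCL libraries, and neither passed. Of all 9467 tested genes, 1.10% passed as higher on ISB-P. All ISB-P libraries lay above all PCL libraries in 8.17% of tested genes and below them in 9.54%. Asns, Sesn2 and Vldlr overlapped between the films. Libraries of a bulk sample cannot tell more RNA per cell from more cells that carry it.

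**Figure D1:**
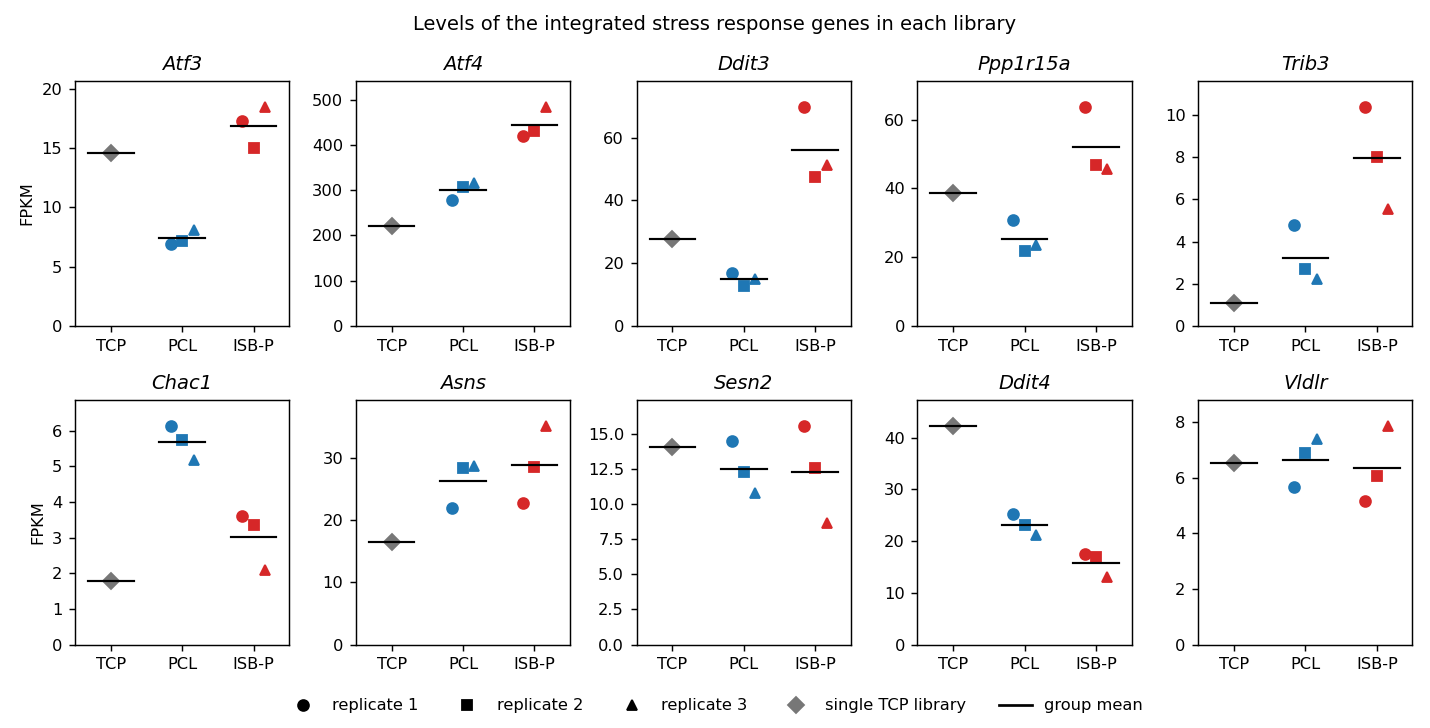
Level of each of the 10 genes in each library, in FPKM on linear axes that start at 0; circles, squares and triangles are replicates 1, 2 and 3 of a film, the diamond is the single TCP library and the bar is the group mean. Ddit3 on ISB-P, at 47.4 to 69.7 FPKM, lies above both PCL and TCP, whereas Ddit4 on ISB-P, at 13.1 to 17.5 FPKM, lies below both.

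Ddit3 encodes CHOP, a bZIP factor that turns on genes of cell death when stress persists. Taking replicates in the order 1, 2, 3 here and for every gene that follows, its level was 69.7, 47.4 and 51.2 FPKM with ISB-P, 16.9, 12.6 and 15.0 with PCL, and 27.8 on TCP. The films did not overlap, and TCP lay between them. The log2 fold change of Ddit3 on log2(FPKM + 1) was 1.84 with a standard error of 0.19, which is 3.57-fold, and its adjusted p was 0.00805 in limma. By the size of its fold change Ddit3 ranked 19th among the 9467 genes tested.
Atf3, a bZIP factor induced within hours by many stresses, was 17.3, 15.0 and 18.4 FPKM on ISB-P, 6.95, 7.18 and 8.06 on PCL and 14.6 on TCP. Every ISB-P library was above every PCL library. A standard error of 0.13 belonged to its log2 fold change of 1.09 (adjusted p = 0.0159 in limma).
Both calls were lost in some fits with 1 library left out, as were most calls over all tested genes. The number passing as higher over all tested genes was 104 with all 6 film libraries. It was 27, 13, 25 and 16 without PCL replicates 1, 2 and 3 and ISB-P replicate 2. The adjusted p of Ddit3 in limma was 0.0795, 0.0506 and 0.0510 without PCL replicate 2, PCL replicate 3 and ISB-P replicate 2. That of Atf3 was 0.0827, 0.148, 0.0676 and 0.0907 without PCL replicates 1, 2 and 3 and ISB-P replicate 2. The log2 fold changes stayed between 1.67 and 1.95 for Ddit3 and between 1.03 and 1.17 for Atf3 when any of the 6 film libraries was left out.

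Atf4, the factor at the centre of the pathway, was the most abundant of the 10 genes in FPKM, at place 251 among the tested genes. It was 421, 431 and 483 FPKM on ISB-P, 277, 308 and 315 on PCL and 220.5 on TCP. The 3 surfaces did not overlap in Atf4. Between the films Atf4 differed by 0.57 on the log2 scale (standard error 0.12, adjusted p = 0.0834 in limma). Same-numbered libraries of the films deviated together across genes, with correlations of 0.431 to 0.887. In the fit that compares them within a number, called the replicate block here, the adjusted p of Atf4 was 0.000523.
Ppp1r15a encodes GADD34, the stress-induced subunit that brings a phosphatase to eIF2 and so reverses the response. Its levels were 63.6, 46.7 and 45.5 FPKM on ISB-P, 30.8, 21.7 and 23.5 on PCL and 38.6 on TCP. All ISB-P values of Ppp1r15a lay above TCP and all PCL values below it. Its films were 1.00 apart on the log2 scale (standard error 0.19, adjusted p = 0.0667 in limma, 4.95e-05 with the replicate block).
Trib3, a pseudokinase that binds ATF4 and holds it back, was low throughout, at 10.4, 8.01 and 5.55 FPKM on ISB-P, 4.80, 2.69 and 2.24 on PCL and 1.11 on TCP. The spread inside each film was large, with replicate 1 highest and replicate 3 lowest on both. The ratio of ISB-P to PCL within replicates 1, 2 and 3 was 2.16, 2.98 and 2.47. Without the block its log2 fold change of 1.09 had a standard error of 0.28 (adjusted p = 0.147 in limma), and with the replicate block one of 0.10 (adjusted p = 0.000148).

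Chac1, an enzyme that breaks down glutathione and a classical readout of ATF4 activity, went the other way. It was 3.60, 3.34 and 2.08 FPKM on ISB-P, 6.13, 5.74 and 5.18 on PCL and 1.78 on TCP. PCL was the surface with the highest level of Chac1, and no library of it overlapped ISB-P. On the log2 scale ISB-P minus PCL came to -0.76 (standard error 0.18, adjusted p = 0.112 in limma, 0.00153 with the replicate block). With the pseudocount of 1, PCL was 1.69-fold above ISB-P on log2(FPKM + 1) and 1.89-fold by the ratio of means.
Ddit4 encodes REDD1, which curbs the growth kinase complex mTORC1. Its levels were 17.5, 16.9 and 13.1 FPKM on ISB-P, 25.2, 23.0 and 21.3 on PCL and 42.3 on TCP. The surfaces did not overlap in Ddit4, with TCP highest and ISB-P lowest. ISB-P minus PCL was -0.53 on the log2 scale (standard error 0.15, adjusted p = 0.192 in limma, 0.00246 with the replicate block).

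Of the 3 genes with overlap, Asns, which makes asparagine, was 22.7, 28.5 and 35.1 FPKM on ISB-P and 21.9, 28.3 and 28.6 on PCL, and 16.4 on TCP. Both films thus lay above the TCP library. The log2 fold change of Asns was 0.12, with a 95% confidence interval of -0.35 to 0.58 without the block and -0.07 to 0.30 with it (adjusted p = 0.931 and 0.331 in limma).
Sesn2, a leucine sensor that restrains mTORC1, was 15.6, 12.6 and 8.63 FPKM on ISB-P, 14.5, 12.3 and 10.7 on PCL and 14.1 on TCP. The interval of its log2 fold change of -0.05 was -0.58 to 0.48 (adjusted p = 0.966 in limma). Vldlr, a lipoprotein receptor that ATF4 induces under endoplasmic reticulum stress, was 5.18, 6.04 and 7.86 FPKM on ISB-P, 5.66, 6.89 and 7.39 on PCL and 6.53 on TCP. For Vldlr the interval around -0.07 was -0.47 to 0.34 (adjusted p = 0.954 in limma). With the replicate block the intervals were -0.27 to 0.16 for Sesn2 and -0.27 to 0.14 for Vldlr. In these 3 genes the difference between replicates 1 and 3 of a film was larger than that between the films.

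Limma called 2 of the 10 genes higher on ISB-P at an adjusted p under 0.05, where 1.10% of the 9467 tested genes did so. None passed as lower, against 0.623% of tested genes, and at an unadjusted p under 0.05 there were 5 higher and 2 lower, where 5.51% and 6.58% of tested genes were. Over all tested genes 104 passed as higher and 59 as lower, or 72 and 72 after scaling to a common total, which put the median log2 fold change of all genes at -0.09. The number of the 10 genes passing as higher was 1 without PCL replicate 1 and 0 without PCL replicate 2, PCL replicate 3 or ISB-P replicate 2. Over all tested genes it was 27, 13, 25 and 16 without these libraries in turn. With the replicate block 5 passed as higher and 2 as lower, where 13.0% and 11.4% of all tested genes passed. In 5 genes all ISB-P libraries were above all PCL libraries, a separation that 8.17% of tested genes showed, and in 2 genes they were all below, as in 9.54% of tested genes. The median log2 fold change of the 10 genes was 0.34, beside 0.02 over all genes tested. Differences between the films were over 2-fold on log2(FPKM + 1) for 4 of the 10 genes, all of them higher on ISB-P, and for 111 of the 9467. After scaling to a common total, Atf3, Ppp1r15a and Trib3 fell below 2-fold, at log2 fold changes of 0.98, 0.89 and 0.99. For each of the 7 genes without overlap the two-sided exact permutation test gave p = 0.1, the smallest that 3 against 3 libraries allow.

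**Figure D2:**
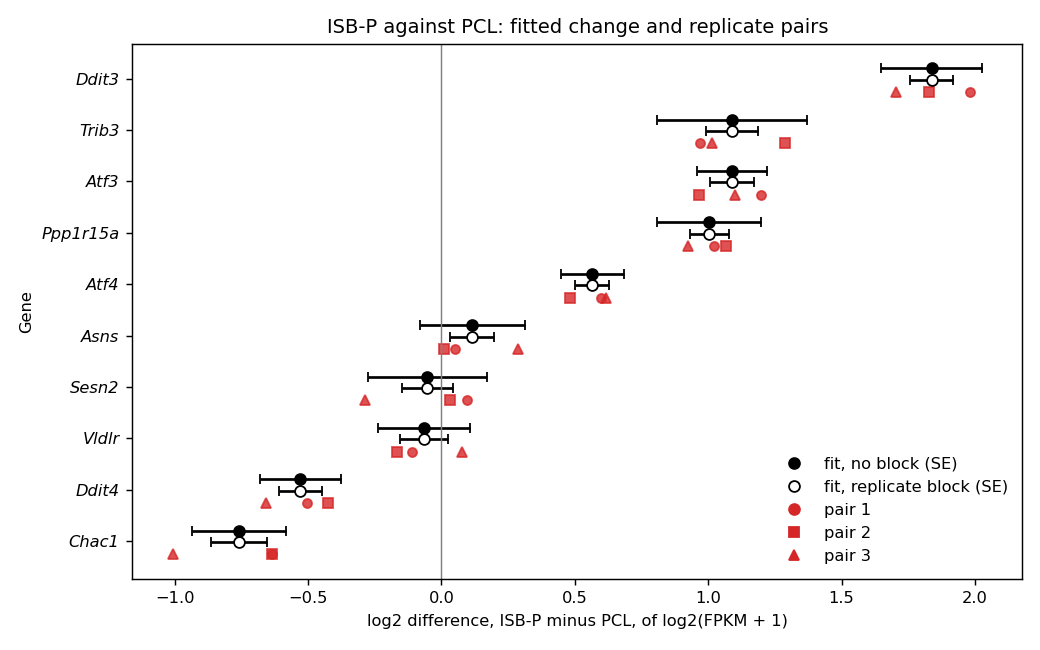
Difference between ISB-P and PCL for each gene on log2(FPKM + 1); filled and open circles are the limma estimates without and with the replicate block, bars are their standard errors, and red marks are the differences within replicate numbers 1, 2 and 3. Red marks lie on 1 side of 0 for all genes except Sesn2 and Vldlr, and the standard error of Trib3 is 0.28 without the block and 0.10 with it.

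Within a library, the ratio of 2 genes does not change when all its values are scaled by a single factor. Quantile normalization is not such a scaling and can change it. For each FPKM of Trib3 there were 0.347, 0.417 and 0.374 FPKM of Chac1 on ISB-P and 1.28, 2.13 and 2.31 on PCL, with 1.60 on TCP. Both genes hold the CARE letters shown above. Their levels lay on opposite sides between the films, which fixes that this ratio does not overlap. Ddit3 was 0.166, 0.110 and 0.106 of the Atf4 level on ISB-P, 0.0610, 0.0411 and 0.0477 on PCL and 0.126 on TCP. Relative to Atf4, Ddit3 on TCP therefore lay among the ISB-P libraries. Chac1 was 0.00687 of the Atf4 level on ISB-P on average (SD 0.00226, n = 3), 0.0191 on PCL (SD 0.00285, n = 3) and 0.00809 on TCP. The gene pairs were chosen with their levels known, so no test is given for these ratios.

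Across the 7 libraries Ddit3 and Ppp1r15a followed each other most closely of all pairs among the 10 genes (r = 0.97 on log2(FPKM + 1)). Over the deviations of the 6 film libraries from their film means their r was 0.94, and other pairs, such as Chac1 and Ddit4 (r = 0.98), were closer there. Atf4 and Ddit4 ran in opposite directions, with r = -0.97 over the 7 libraries and -0.95 over the deviations. Other pairs with Atf4 were at least as strong over the deviations, such as Vldlr (r = 0.97) and Trib3 (r = -0.98). Over the 7 libraries the r of Atf4 and Trib3 was 0.82. Of 4999 candidate genes with a mean of 16 FPKM or more on either film, those most like Ddit3 over the 7 libraries were Parp3 (r = 0.98), Hspa1a (r = 0.98) and Ppp1r15a. Most like Atf4 were Uspl1, Gsta1 and Areg (r = 0.99 each), and most like Atf3 were Zbtb38, Klf10 and Nrep (r = 0.97 to 0.99). Among 5000 candidates for Chac1 they were Slc20a2, Flt4 and Prpf19, and among 4999 for Ddit4 Cry2, Rem2 and Itgb3 (r = 0.99 each). The 3 were picked as the highest of all candidates, and the 7 points share surfaces and replicate numbers.
For the other genes, those most like Ppp1r15a were Ddit3, Hspb1 and Kat5 (r = 0.97 each), and most like Trib3 were Pelo, Txn1 and Sqstm1 (r = 0.98 each). Hspa1a and Hspb1, which encode heat shock proteins, thus stood among the genes nearest to Ddit3 and Ppp1r15a. For Asns they were Sfxn1, Snrpf and Mtmr2 (r = 0.99 each), for Sesn2 Ccdc97, Ptov1 and Rbm42 (r = 0.99 or above), and for Vldlr Map4k5, Rnf103 and Epm2aip1 (r = 0.99 each).

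The replicate number carried a difference of its own in these genes. From replicate 1 to replicate 3, Trib3 differed by -0.80 on the log2(FPKM + 1) scale on ISB-P and by -0.84 on PCL, and Sesn2 by -0.78 and -0.40. Asns differed by 0.61 on ISB-P and 0.37 on PCL, and Vldlr by 0.52 and 0.33. The sign was the same in both films for all 10 genes. Across all tested genes same-numbered libraries also deviated together, with correlations of 0.887 and 0.867 for numbers 1 and 3. A shared sign is therefore not particular to these genes. What the numbers stand for is not given in the labels, and the part of depth or RNA quality in these differences was not tested.

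On the single TCP library the 10 genes did not stand uniformly below or above the films. Trib3 was 4.25-fold and Atf4 2.01-fold higher in the ISB-P mean than on TCP, with 1 FPKM added to each value, and Ddit4 was 2.57-fold lower. These were the genes over 2-fold apart, 2 above and 1 below, where 8.98% and 4.28% of the tested genes were. Ddit3 reached 1.98-fold above TCP. On PCL, Chac1 was 2.40-fold and Trib3 2.01-fold above TCP, against 5.56% of tested genes, and no gene of the 10 was over 2-fold below it, against 3.04%. Ddit3 and Atf3 were instead 1.82-fold and 1.86-fold lower on PCL than on TCP. These comparisons have no replicate check on the TCP side, and the values near 2-fold crossed it with the scaling. After scaling to a common total, to a common upper quartile or by quantile normalization, Trib3 stayed over 2-fold above TCP on ISB-P and Atf4 did not. Under the same scalings Chac1 on PCL was 2.31-fold to 2.48-fold above TCP, whereas Trib3 on PCL stayed over 2-fold with quantile normalization alone. Without PCL replicate 1, Trib3 on PCL was no longer over 2-fold above TCP. Ddit3 on ISB-P was 2.13-fold above TCP without ISB-P replicate 2 and 2.07-fold without ISB-P replicate 3, and without the latter Atf4 was no longer over 2-fold above. The leukocyte markers, higher on TCP by their sum, moved with this comparison, and their part in it was not tested.

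**Figure D3:**
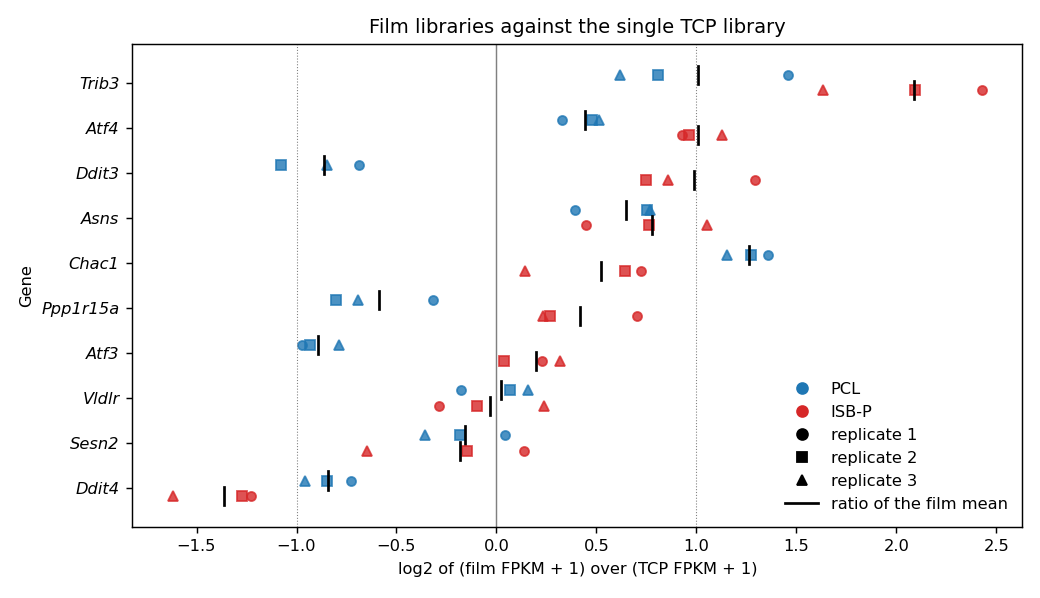
Level of each gene in each film library relative to the single TCP library, as the log2 of the ratio with 1 FPKM added to both values; blue is PCL, red is ISB-P, marks are replicates 1 to 3, black bars are the ratios of the film means and dotted lines mark 2-fold. Ddit3, Ppp1r15a and Atf3 lie below TCP on PCL and above it on ISB-P, while Ddit4 lies below TCP on both.

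The other genes of the pathway were read from lists of 102 genes, of which 100 were in the files and 96 were tested. Of these, 0 passed in limma as higher and 2 as lower, while 10 were higher and 6 lower with an unadjusted p under 0.05, against 5.51% and 6.58% of all tested genes. With the replicate block 21 passed as higher and 9 as lower, against 13.0% and 11.4% of all tested genes. In limma without the block, 1.10% of all tested genes passed as higher and 0.623% as lower. The same shares are the background for the counts of each list below. The median log2 fold change of the 96 was 0.08, against 0.02 over all genes tested.

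Upstream of ATF4, of 17 genes for the eIF2 kinases, eIF2, its exchange factor eIF2B and their regulators, none passed in limma and 1 was lower at an unadjusted p under 0.05, and with the replicate block 2 passed as higher and 1 as lower. The 4 kinases were Eif2ak1 (haem), Eif2ak2 (double-stranded RNA), Eif2ak3 (endoplasmic reticulum stress) and Eif2ak4 (amino acid shortage). Their log2 fold changes were 0.01, 0.00, -0.10 and -0.35, and Eif2ak4, at 6.04 ± 0.413 FPKM on ISB-P and 7.95 ± 0.527 on PCL (SD, n = 3), had an adjusted p of 0.263 in limma and 0.0178 with the replicate block. Eif2b4, an eIF2B subunit, followed by p, at a log2 fold change of -0.25 (adjusted p = 0.505). Ppp1r15b, the constitutive counterpart of Ppp1r15a, named after its values were seen, had a log2 fold change of 0.10 (adjusted p = 0.908). The ratio of Ppp1r15a to Ppp1r15b within a library was 1.97 ± 0.483 on ISB-P, 1.03 ± 0.235 on PCL (SD, n = 3) and 2.13 on TCP.

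The other 2 branches of the unfolded protein response, through ATF6 and through IRE1 and XBP1, held 14 tested genes, of which none passed in limma as higher or lower. At an unadjusted p under 0.05, 1 gene was higher and 0 were lower, and with the replicate block likewise 1 and 0 passed. Hspa5, the main chaperone of the endoplasmic reticulum, ranged from 280.1 to 420.3 FPKM on ISB-P and from 273 to 382 on PCL (log2 fold change 0.10, adjusted p = 0.937). Ern1, which encodes IRE1, had a log2 fold change of 0.30 (adjusted p = 0.358 in limma, 0.0276 with the replicate block), and Creld2 one of -0.24 (adjusted p = 0.680). The median over the 14 genes was 0.04.

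Among 6 partner factors of ATF4, 5 were tested and none passed in limma, nor had any an unadjusted p under 0.05, while 2 passed as higher and 1 as lower with the replicate block. Atf5, a bZIP factor under the same translational control, was 53.6, 45.0 and 33.2 FPKM on ISB-P and 36.1, 31.3 and 24.6 on PCL (log2 fold change 0.49, adjusted p = 0.459, or 0.00204 with the replicate block). It was higher on ISB-P within each replicate number, though the films overlapped. Jdp2, a repressor of the same family, went the other way with a log2 fold change of -0.63 (adjusted p = 0.435, or 0.00132 with the replicate block). Cebpb, a C/EBP partner, spread from 41.7 to 125 FPKM on ISB-P and from 57.7 to 128 on PCL (log2 fold change 0.03, adjusted p = 0.989). Nupr1 was listed at 0 in all libraries.

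Amino acid transporters included the gene with the largest fold between the films among these lists. Of 9 genes, 1 passed as lower in limma, Slc43a1, a carrier of large neutral amino acids, at 2.95 ± 0.183 FPKM on ISB-P and 4.90 ± 0.193 on PCL (SD, n = 3; log2 fold change -0.58, adjusted p = 0.04995). The call of Slc43a1 was lost when any of the 6 film libraries was left out (adjusted p = 0.106 to 0.335 in limma). With all 6 kept, its adjusted p in limma was 0.0804 with a common upper quartile and 0.0965 with quantile normalization. It was 0.0538 with a pseudocount of 0.1, 0.0736 without the filter and 0.0515 with TCP in the fit. The call held with a common total (adjusted p = 0.0453 in limma) and with the replicate block (0.00222). No transporter passed as higher. At an unadjusted p under 0.05, 4 were higher and 2 lower, against 5.51% and 6.58% of all tested genes. With the replicate block 5 transporters passed as higher and 2 as lower, against 13.0% and 11.4% of all tested genes. Slc7a11, the cystine carrier that feeds glutathione synthesis, named here after its values were seen, was 32.2, 50.1 and 98.6 FPKM on ISB-P, 9.44, 16.8 and 21.1 on PCL and 0.287 on TCP. Its films did not overlap, and they were 1.79 apart on the log2 scale (standard error 0.44, adjusted p = 0.136 in limma, 3.07e-05 with the replicate block). Its partner chain Slc3a2, also chosen after its values were seen, had a log2 fold change of 0.58 (adjusted p = 0.0723 in limma, 0.000651 with the block).

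Of 11 tested enzymes of amino acid and one-carbon metabolism, none passed in limma, 1 was lower at an unadjusted p under 0.05, and 0 were higher. With the replicate block 0 passed as higher and 3 as lower. Gpt2, a mitochondrial alanine transaminase, averaged 2.60 ± 0.372 FPKM on ISB-P and 4.87 ± 0.786 on PCL (SD, n = 3; log2 fold change -0.70, adjusted p = 0.0820, or 0.000928 with the replicate block), and Pck2, the mitochondrial enzyme that makes phosphoenolpyruvate, had a log2 fold change of -0.40 (adjusted p = 0.532, or 0.00595 with the block). The aminoacyl-tRNA synthetases, 20 genes, had a median log2 fold change of 0.16 and none passed in limma, with 1 higher at an unadjusted p under 0.05 and 5 passing as higher with the replicate block. Aars, which charges alanine tRNA, reached 128 ± 5.83 FPKM with ISB-P and 97.7 ± 3.48 with PCL (SD, n = 3; log2 fold change 0.39, adjusted p = 0.195, or 0.00382 with the replicate block), and Yars, for tyrosine, had a log2 fold change of 0.24 (adjusted p = 0.559, or 0.0317 with the block).

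Of 13 other tested targets of ATF4 none passed in limma, 2 were higher and 1 lower at an unadjusted p under 0.05, and 4 passed as higher and 1 as lower with the replicate block. Pmaip1, which encodes the death promoter NOXA, was 35.8, 28.2 and 28.9 FPKM on ISB-P, 17.6, 8.13 and 13.0 on PCL and 9.22 on TCP, without overlap of the films (log2 fold change 1.25, standard error 0.27, adjusted p = 0.0884 in limma, 0.000294 with the block). Sqstm1, the autophagy receptor p62 and also a target of NRF2, averaged 545 ± 75.8 FPKM on ISB-P and 352 ± 20.1 on PCL (SD, n = 3; log2 fold change 0.62, adjusted p = 0.0970, or 0.000513 with the block).

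Of 10 tested relatives of the 10 genes, 1 passed in limma, as lower on ISB-P, and 2 were higher and 1 lower at an unadjusted p under 0.05. With the replicate block 3 passed as higher and 2 as lower. Trib2, a pseudokinase of the family of Trib3, was 2.64, 2.86 and 3.75 FPKM on ISB-P, 5.80, 7.09 and 8.22 on PCL and 10.9 on TCP (log2 fold change -0.98, standard error 0.16, adjusted p = 0.0445). No library of ISB-P overlapped PCL in Trib2, though the call was lost when any film library other than ISB-P replicate 3 was left out (adjusted p = 0.0844 to 0.268 in limma). With all film libraries kept, the call of Trib2 was also lost without the filter (adjusted p = 0.0629 in limma) and with the stricter filter (0.0652). Within a library Trib3 stood at 3.93, 2.80 and 1.48 times Trib2 on ISB-P, at 0.828, 0.379 and 0.273 times on PCL and at 0.102 times on TCP. Trib1, another pseudokinase of that family, named after its values were seen, had a log2 fold change of 0.86 and did not pass in limma (adjusted p = 0.123), but passed with the replicate block (adjusted p = 0.000277). Ddit4l, related to Ddit4 and also named after its values were seen, was 26.1, 25.4 and 30.8 FPKM on ISB-P, 21.7, 22.0 and 26.4 on PCL and 1.79 on TCP, so that Ddit4 was lower and Ddit4l higher in every film library than on TCP.

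**Figure D4:**
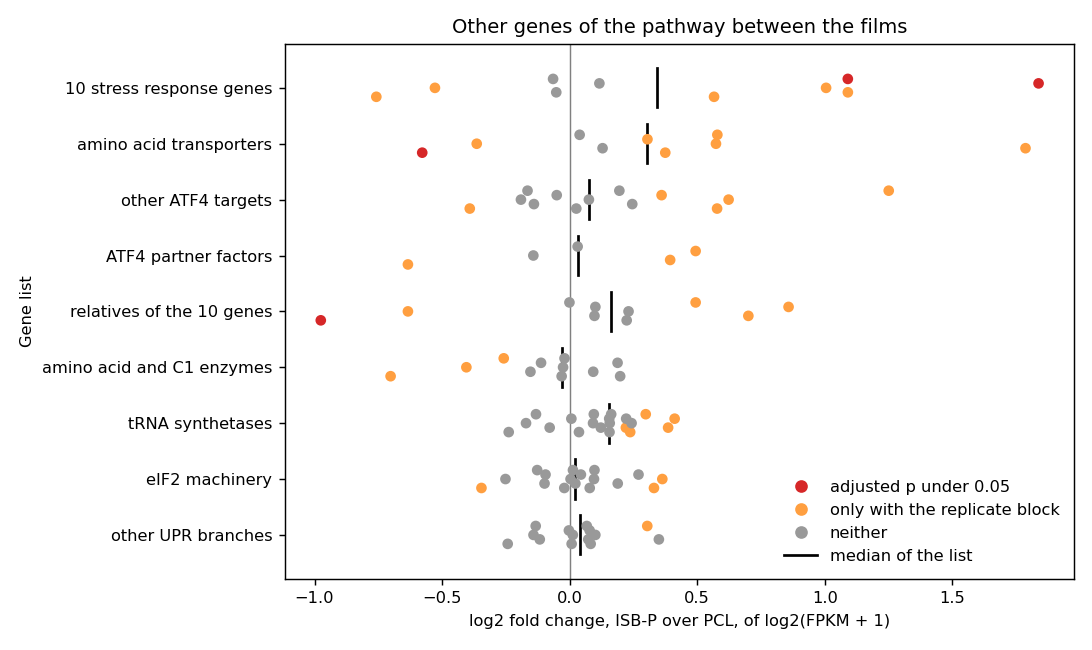
Log2 fold change between ISB-P and PCL, on log2(FPKM + 1), of every tested gene in each list. Red points have an adjusted p under 0.05 in limma, orange points only with the replicate block, and grey points in neither. Black bars are list medians, 0.34 for the 10 stress response genes, 0.30 for the amino acid transporters and 0.08 for the other ATF4 targets. The median is 0.16 for the tRNA synthetases and for the relatives of the 10 genes. It is 0.04 or less for the eIF2 machinery, the ATF4 partner factors, the amino acid and one-carbon enzymes and the other branches of the unfolded protein response. Atf5, Jdp2 and Ppp1r15b stand in more than 1 list.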

How the data were processed

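The authors prepared stranded, poly(A)-selected libraries (Illumina TruSeq), sequenced as paired ends. Per the labels, the processing notes name bcl2fastq 2.20.0.422, cutadapt 1.18, TopHat2 2.0.13, Cuffdiff 2.2.1 and the build rn5, without roles, and the methods name ExDEGA. The authors deposited 1 value per gene symbol and library, read here as FPKM because values are not whole and Cuffdiff gives that unit. The annotation is not given in the sources used here. FPKM keeps no read depth. Low values showed shared steps in at most 45.5% of genes for a pair of libraries, too few to recover reads, so depth is unknown and no counting interval is given. Headers number the PCL libraries differently from the titles, and replicate numbers were taken from the titles.

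A gene was tested when 3 or more of the 6 film libraries held it at 1 FPKM or above, 9467 in all. Of the 10 genes described, all passed. ISB-P and PCL were compared on log2(FPKM + 1), which understates changes of low genes, with limma 3.58.1 in R 4.3.3 (trended eBayes, two-sided) and Benjamini-Hochberg adjustment over all tested genes. The step was tested on simulated data. TCP, a single library, was compared by ratios without a test. Same-numbered ISB-P and PCL libraries deviated together (correlations across genes of 0.887, 0.431 and 0.867 for numbers 1, 2 and 3), so fits with the replicate number as a block are given where they change a call. The pairing rests on the numbers in the titles.

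The genes and lists were chosen with earlier results of these data known, and 1 list gene is counted but not reported by itself here. Named from the other lists were called genes (at most 5 by size) or, with none called, the 2 with the smallest p, besides the eIF2 kinases, Atf5, Cebpb, Nupr1 and Hspa5, and for each gene the 3 most correlated genes. Genes named outside this rule are marked in the text or stand in ratios or marker lists. Alternatives were 3 other scalings, a pseudocount of 0.1, other filters, TCP in the fit, other thresholds and each film library left out. Promoter windows were read from RefSeq with pandas 2.3.3 in Python 3.11.15, and plots were drawn with matplotlib 3.10.9.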

Additional observations from a re-analysis of the deposited data

How the results depend on the processing

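Over 139 refitted values of the 10 log2 fold changes, 121 kept their direction and their side of an adjusted p of 0.05, 7 (Atf3 and Ddit3 with a library left out) lost the call, 5 (Atf4, Ppp1r15a, Trib3, Chac1 and Ddit4 with the replicate block) gained it, and 6 changed sign. The sign changes were in Asns (-0.0058 without PCL replicate 1, -0.033 without ISB-P replicate 3), Sesn2 (0.05 and 0.16 without the same libraries) and Vldlr (0.0055 without PCL replicate 3, 0.053 without ISB-P replicate 1). With each library left out in turn their log2 fold changes ranged from -0.033 to 0.27, from -0.23 to 0.16 and from -0.21 to 0.053. Chac1 could not be fitted under the stricter filter, a mean of 5 FPKM.
With the replicate block 5 of the 10 genes passed as higher and 2 as lower on ISB-P, of all tested genes 1228 and 1079, and of the other pathway genes 21 and 9. The block changed no call of Asns, Sesn2, Vldlr, Atf3 or Ddit3. Without the block these counts were 2 and 0, 104 and 59, and 0 and 2. With a common total, 72 genes were called higher and 72 lower. The upper quartile left 39 lower genes, the stricter filter 57 higher and 17 lower, and a fold over 2 with an unadjusted p under 0.1 and 16 FPKM 58 higher and 7 lower. That last rule gave 3 higher and 0 lower of the 10 genes, and 2 higher and 0 lower of the other pathway genes. Their lower count was 1 with the upper quartile, quantile normalization, the pseudocount of 0.1 or TCP in the fit, and 0 without the filter or with the stricter one. With each library left out in turn, which leaves fewer samples, the counts ranged from 0 to 2 for the 10 genes as higher, from 13 to 70 and from 2 to 30 over all genes, and from 0 to 1 for other pathway genes as lower.
Of the 10 genes, 1 instead of 2 was over 2-fold above TCP on ISB-P with a common total, an upper quartile or quantile normalization, and on PCL with a common total or an upper quartile. Leaving out a PCL library gave 1 to 2. The causes were not tested. Leaving out an ISB-P library gave 2 to 3 on ISB-P. Depth is unknown, and Trib3, Chac1 and Vldlr had the lowest levels of the 10 genes.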
